A study of Mus musculus with 25 samples.

Results

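The 38 genes described here make, store and release fat in the liver: the factors that switch on lipogenesis, the enzymes that build fatty acids and triglycerides, the proteins that coat lipid droplets, and the lipases that empty them. They were chosen by name, and all 38 of 38 were found in the gene tables of both cohorts, at 40 loci of 46499 at 20 weeks and 40 loci of 46052 at 39 weeks. Mlxipl and Cidec each have 2 loci with the same coordinates, and the one with the lower level is called the second locus. At 39 weeks the Fads2 locus also carries the name of its neighbour Fads3, so the reads of both genes are in its value.

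RNA-seq was made from the livers of 25 C57BL/6 mice on a standard diet. The 20-week cohort held 4 untreated wild type mice and 4 untreated mice labelled Ncoa5+/-, a heterozygous genotype of Ncoa5, which encodes a coactivator of nuclear receptors. The allele is not described further in the labels. The 39-week cohort held 4 untreated wild type mice, 5 untreated Ncoa5+/- mice, 3 wild type mice given metformin and 5 Ncoa5+/- mice given metformin. Treated mice drank metformin, which lowers blood glucose, in their water for 31 weeks starting at week 8, with an intake near 250 mg per kg of body weight daily. The cohorts were prepared by different facilities and were compared only within themselves. Levels are FPKM, sequenced fragments scaled to transcript length and library size, and differences are of log2(FPKM + 1) with their standard error. Positive means higher in Ncoa5+/- or in treated mice.

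In liver, SREBP-1c (from Srebf1) and ChREBP (from Mlxipl) raise lipogenic genes after a carbohydrate meal, and PPAR-gamma (from Pparg) raises genes of droplet storage when the liver is steatotic. Cytosolic acetyl-CoA is carboxylated and chained into palmitate, lengthened and desaturated, and joined to glycerol. The triglyceride made is kept in droplets whose coat proteins control how lipases reach it.

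Ncoa5 did not separate the labels: at 20 weeks Ncoa5+/- mice spanned 2.9 to 5.03 FPKM and wild type mice 3.11 to 5.3. At 39 weeks untreated Ncoa5+/- mice spanned 2.63 to 4.42 and untreated wild type mice 3.6 to 4.68. The groups therefore stand as labelled. Library sums of FPKM spanned 695645 to 1613503 in the younger and 857291 to 2089981 in the older cohort. Without read counts in the files used, depth is unknown. The top 50 loci held more than 70% of that sum in 3 libraries: wild type replicate 4 at 20 weeks, and untreated Ncoa5+/- replicate 3 and treated Ncoa5+/- replicate 5 at 39 weeks. Of 8 hepatocyte markers, Apob, Cps1, Tat and Hnf4a were high in every mouse, the lowest values being 639, 397, 242 and 104 FPKM. The other 4 are listed at 0 in every mouse of 1 or more groups: Serpina1a in all, Apoa1 and Cyp3a11 in all at 20 weeks, and Ttr in 20-week wild type mice, where Ncoa5+/- mice have 5570 to 9220. At 39 weeks Apoa1 and Ttr are at 0 in both Ncoa5+/- groups and at 5630 or more in both wild type groups. A group at 0 for such genes was read as a failed estimate, so no fold was taken. The adipocyte genes Adipoq, Lep, Plin1, Retn and Ucp1 were under 1 FPKM in every mouse, Lep at 0 in all at 20 weeks and Ucp1 at 0 in all at 39 weeks, and the summed adipocyte list ran from 7.64 to 40.8 FPKM over all mice. In bulk tissue, fewer cells of a type and less RNA per cell cannot be told apart.

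Promoters are shown for Srebf1 and for 4 genes whose levels followed a regulator's across mice of the older cohort (values below). Acly and Fasn followed Srebf1 there, and Plin2 and Mgll followed Pparg. In the younger cohort Pearson's r for these pairs was 0.013, 0.001, −0.382 and −0.286. Each window runs 5′ to 3′ on the gene's strand from 250 bases before to 50 bases after a RefSeq start on GRCm38.p6, and such windows were found for 33 of the 38 genes, 46 windows in all. Capitals mark CCAAT, the box bound by NF-Y, and CACGTG, an E-box, on either strand. In Fasn the capitals CCAATTGG are 2 CCAAT boxes on opposite strands that overlap. Cidec and Fitm2 also followed Pparg in the older cohort, but their windows held neither box and are not shown. Cidea followed it too and had no window. Left out as well were a further Mgll window with neither box and further Srebf1 windows, of which 1 held CCAAT.
Srebf1, chr11:60210422-60210721, minus strand: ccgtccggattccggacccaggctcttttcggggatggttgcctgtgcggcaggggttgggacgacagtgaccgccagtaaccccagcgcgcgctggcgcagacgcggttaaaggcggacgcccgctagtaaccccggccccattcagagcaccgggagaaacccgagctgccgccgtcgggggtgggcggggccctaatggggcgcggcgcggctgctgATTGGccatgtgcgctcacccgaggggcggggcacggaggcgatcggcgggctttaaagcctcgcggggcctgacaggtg
Acly, chr11:100527951-100528250, minus strand: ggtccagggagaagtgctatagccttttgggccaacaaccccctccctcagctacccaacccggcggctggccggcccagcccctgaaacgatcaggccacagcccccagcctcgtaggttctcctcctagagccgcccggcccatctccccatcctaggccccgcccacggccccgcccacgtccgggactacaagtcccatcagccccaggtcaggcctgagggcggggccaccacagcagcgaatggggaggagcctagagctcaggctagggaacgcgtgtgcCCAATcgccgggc
Fasn, chr11:120824498-120824797, minus strand: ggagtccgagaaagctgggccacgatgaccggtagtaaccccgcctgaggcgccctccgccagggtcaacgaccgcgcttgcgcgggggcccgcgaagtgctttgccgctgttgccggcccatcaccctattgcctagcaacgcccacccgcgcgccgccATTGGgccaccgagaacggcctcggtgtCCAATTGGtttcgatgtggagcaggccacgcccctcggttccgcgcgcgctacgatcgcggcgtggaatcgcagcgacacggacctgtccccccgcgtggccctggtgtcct
Plin2, chr4:86670010-86670309, minus strand: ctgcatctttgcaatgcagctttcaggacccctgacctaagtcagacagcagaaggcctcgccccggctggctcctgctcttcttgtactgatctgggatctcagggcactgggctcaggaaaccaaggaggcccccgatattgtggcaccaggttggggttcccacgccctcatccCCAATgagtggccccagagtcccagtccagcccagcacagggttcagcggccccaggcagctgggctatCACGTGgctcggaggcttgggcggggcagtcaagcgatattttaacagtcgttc
Mgll, chr6:88724162-88724461, plus strand: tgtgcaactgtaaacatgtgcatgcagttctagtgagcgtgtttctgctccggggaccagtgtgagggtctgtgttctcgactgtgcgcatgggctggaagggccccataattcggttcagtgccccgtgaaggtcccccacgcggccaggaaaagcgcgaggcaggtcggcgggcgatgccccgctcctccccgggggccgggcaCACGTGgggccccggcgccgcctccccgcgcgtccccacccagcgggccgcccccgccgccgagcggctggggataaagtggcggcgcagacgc
CCAAT stood in 21 of the 46 windows (45.7%), against 37.4% of all 32851 mouse windows of the same length. CACGTG stood in 7 (15.2%), against 7.15% of all. TCACNCCAC, an SREBP element, stood in 1, a second Mlxipl start (2.17%, against 1.24% of all). AGGTCA repeated with 1 base between, a PPAR element, was in 0, against 0.0396% of all windows. These letters describe the windows only.

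**Figure D1:**
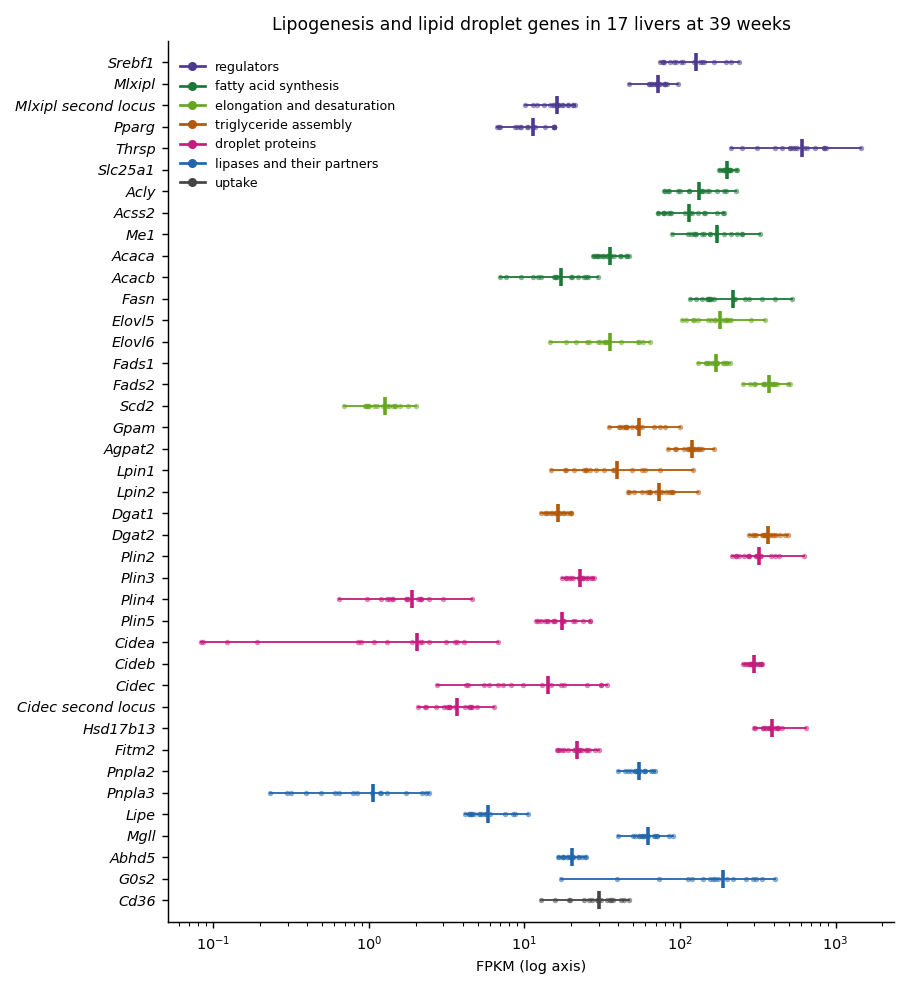
Level of each member locus in the 17 livers at 39 weeks, as FPKM on a log axis; dots are mice, the line spans lowest to highest, the tick is the mean, and colour gives the role. Thrsp was the highest member (mean 609 FPKM) and Pnpla3 the lowest (1.06), and Cidea spread most, from 0.0839 to 6.76.

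The module covered a wide range of levels, and at 39 weeks its members varied more between mice than most loci. The highest means there were 609 FPKM for Thrsp, a nuclear protein that accompanies lipogenesis, 392 for Hsd17b13, a droplet-bound dehydrogenase, and 371 for Fads2, the delta-6 desaturase. The lowest were 1.06 for Pnpla3, a droplet lipase-like protein, and 1.26 for Scd2, a desaturase. Over the 17 mice the coefficient of variation had a median of 29.9% among the 40 member loci, against 15.4% among all 11441 loci tested, and 32 of 40 lay above that median. At 20 weeks the medians were 22.6% for 37 member loci and 21.7% for all 10963, with 19 of 37 above. Scd2, Pnpla3 and Cidea had cohort means under 1 FPKM at 20 weeks and were not tested there.

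By role, the regulators at 39 weeks averaged 126 FPKM for Srebf1, 72 for Mlxipl, 16.3 for its second locus and 11.3 for Pparg. Thrsp, given above, was counted with the regulators. In fatty acid synthesis, Fasn averaged 220 FPKM, Slc25a1 202, Me1 172, Acly 133 and Acss2 115. The 2 acetyl-CoA carboxylases were lower, Acaca, the cytosolic form, at 35.3 and Acacb at 17.1. Among elongases and desaturases, Elovl5 averaged 180 FPKM, Fads1, the delta-5 desaturase, 170 and Elovl6, which takes palmitate to stearate, 35.6.

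In triglyceride assembly Dgat2 stood at 369 FPKM, above Agpat2, which acylates lysophosphatidate, at 119. Lpin2 was at 73, Gpam, the mitochondrial acyltransferase of the first step, at 54.6, Lpin1 at 39.4 and Dgat1 at 16.5. Of the perilipins, Plin2 averaged 321 FPKM, Plin3 22.6, Plin5 17.4 and Plin4 1.89. G0s2 averaged 188 FPKM, Mgll 62.3, Pnpla2 54.7, Abhd5, the coactivator of Pnpla2, 20.1, and Lipe, hormone-sensitive lipase, 5.84. Cidea was near 0 at 20 weeks (at most 0.135 FPKM) and Pnpla3 at most 0.316. Levels at the 2 ages come from separately normalized tables and were not compared.

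The widest spreads at 39 weeks were mostly in droplet and lipolysis genes. Cidea, which with Cidec helps small droplets fuse, had a coefficient of variation of 88.8%. Cidec reached 74.4%, Pnpla3 68.5% and Lpin1, a phosphatidate phosphatase, 68%. G0s2, the inhibitor of adipose triglyceride lipase, ran from 17.3 to 411 FPKM. The steadiest members were Slc25a1, the mitochondrial citrate carrier, at 7.16%, and Cideb, which loads lipid onto VLDL, at 8.44%. Untreated wild type replicate 1 was the highest of the 17 mice at 12 of the 40 loci, among them Fasn, Acly, Thrsp, Elovl6, Gpam and Cidec, and it also had the highest summed adipocyte list (40.8 FPKM, of which Cfd gave 31.8). Whether that list had a part in its values was not tested. Untreated Ncoa5+/- replicate 5 was the lowest at 10, among them Plin2, Cidec and Pnpla2.

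Across 9 comparisons, 0 member loci passed limma at an adjusted p under 0.05. The closest was Dgat2, the last enzyme of triglyceride synthesis, in treated Ncoa5+/- against untreated wild type mice (adjusted p = 0.0692), followed by Dgat2 and Srebf1 for metformin averaged over both genotypes (0.0886 and 0.0892).

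Untreated mice at 20 weeks were compared for the effect of the genotype alone. Regulators and enzymes of fatty acid synthesis had lower means in Ncoa5+/- mice, and most loci of triglyceride assembly and of droplet proteins higher ones, but 0 of 37 member loci passed limma, as did 0% of all 10963 loci (smallest adjusted p among members 0.603). At an unadjusted p under 0.05 there were 5 member loci (13.5%), against 7.48% of all loci: Hsd17b13 and the second Cidec locus higher, and Acacb, Acss2 and Thrsp lower. By sign, 13 member loci were higher and 24 lower with a median of −0.04, whereas 54.4% of all loci were higher with a median of 0.03. All 5 regulator loci, all 7 loci of fatty acid synthesis and all 4 tested loci of elongation and desaturation had negative differences, also under quantile normalization and a median shift, though some were close to 0 (Me1 0.00, Acly −0.02 and Slc25a1 −0.02, each with an error of 0.13 or more). Triglyceride assembly had 5 positive and 1 negative loci (median 0.06; 3 and 3 under quantile normalization, 4 and 2 under a median shift), and droplet proteins 6 and 3 (median 0.15). In the same mice the macrophage and Kupffer cell list was negative for 8 of 8 genes (median −0.64) and summed to 26.2 to 47.8 FPKM in Ncoa5+/- mice and 34.1 to 92.4 in wild type mice, while stellate markers were negative for 4 of 4 tested and endothelial markers for 6 of 8. Hepatocyte markers without failed estimates separated the groups completely, with sums of 3040 to 3090 in Ncoa5+/- and 1820 to 2880 in wild type mice. The part of these lists in the result was not tested.

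Among the regulators, Srebf1 was listed in the 4 Ncoa5+/- mice at 63.9, 25.2, 22 and 18.2 FPKM. The 4 wild type mice stood at 46.7, 24.7, 71.2 and 80.6. Of the Ncoa5+/- mice 3 lay at or under 25.2 FPKM, beside the lowest wild type mouse, and the groups overlapped (−0.82 ± 0.46, adjusted p = 0.603). In the authors' deposited table Srebf1 was called lower in Ncoa5+/- mice, at 33.3 against 55.4 FPKM (q = 0.0402). It was the only member called in that table, where 2.1% of 13975 loci were.

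Pparg ranged from 3.69 to 6.97 FPKM in Ncoa5+/- mice and from 3.85 to 9.72 in wild type mice (−0.34 ± 0.25). Mlxipl ranged from 45.4 to 70.7 and from 64.7 to 91 (−0.23 ± 0.18). Both overlapped between the groups.

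Acacb, the mitochondrial acetyl-CoA carboxylase, was the single member whose groups did not overlap at 20 weeks, against 4.02% of all loci. Its level was 9.23, 8.29, 6.53 and 10.3 FPKM in Ncoa5+/- mice and 13.5, 11.5, 10.6 and 12 in wild type mice. The difference was −0.44 ± 0.14, or 0.737-fold, with an adjusted p of 0.603. Acss2, which makes acetyl-CoA from acetate, was at 84.4, 63.2, 29.5 and 44.3 FPKM in Ncoa5+/- mice. Wild type mice had 82.9, 75.8, 90.6 and 100.1 FPKM, so that 3 of the 4 Ncoa5+/- mice were below every wild type mouse (−0.74 ± 0.29). Fasn, fatty acid synthase, was at 117, 109, 96.1 and 138 FPKM in Ncoa5+/- mice and 161, 134, 97.8 and 133 in wild type mice, overlapping over most of the range (−0.18 ± 0.18).

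Hsd17b13 was at 564, 542, 542 and 450 FPKM in Ncoa5+/- mice and 454, 419, 257 and 257 in wild type mice. Of the Ncoa5+/- mice 3 were above every wild type mouse, and the lowest fell just under the highest wild type (0.64 ± 0.22, 1.56-fold). Plin2, the main droplet coat protein of hepatocytes, was at 279.5, 160, 415 and 209 FPKM in Ncoa5+/- mice and 269, 192, 325 and 241 in wild type mice (−0.02 ± 0.30). Pnpla2, adipose triglyceride lipase, ran from 35.5 to 52.9 and from 40.3 to 59.4 FPKM (−0.24 ± 0.18).

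A single mouse stood at both ends of the module at 20 weeks. Ncoa5+/- replicate 3 was the highest of 8 mice at 8 of 37 loci, among them Plin2, Plin3, Plin4, Plin5, Cidec, G0s2 and Abhd5, and the lowest at 10, among them Fasn, Acacb, Acly, Acss2, Elovl6, Mlxipl and Thrsp. Its Plin5 was 40 FPKM against 14.8 to 19.9 in the other 7 mice, and its Plin4 5.45 against 0.918 to 2.53. Its sum over the further droplet proteins and lipases, listed apart from the members, was the lowest instead (585 FPKM, others 813 to 1070). It had the highest adipocyte sum (16.2, others 7.64 to 11.5) and the lowest sums of fasting and feeding genes (1790, others 1880 to 3330) and of clock genes (140, others 146 to 225). The part of these lists was not tested. Without this mouse the difference of Acss2 was −0.48 in place of −0.74.

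In Gpam, which showed a difference of −0.58 ± 0.33, values followed those of Srebf1 closely: 39.1, 22.1, 16.2 and 15.2 FPKM in Ncoa5+/- mice and 29.8, 20.6, 45.3 and 40.6 in wild type mice. Thrsp was at 249.5, 222, 184 and 282 FPKM in Ncoa5+/- mice and 350, 250, 330 and 310 in wild type mice, with 1 Ncoa5+/- mouse above the lowest wild type mouse (−0.41 ± 0.17, adjusted p = 0.603). The second Cidec locus averaged 2.91 ± 1.22 and 1.52 ± 0.782 FPKM (SD, n = 4 each; difference 0.64). Differences of the other tested members lay between −0.35 for Cd36 and 0.59 for Plin4.

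**Figure D2:**
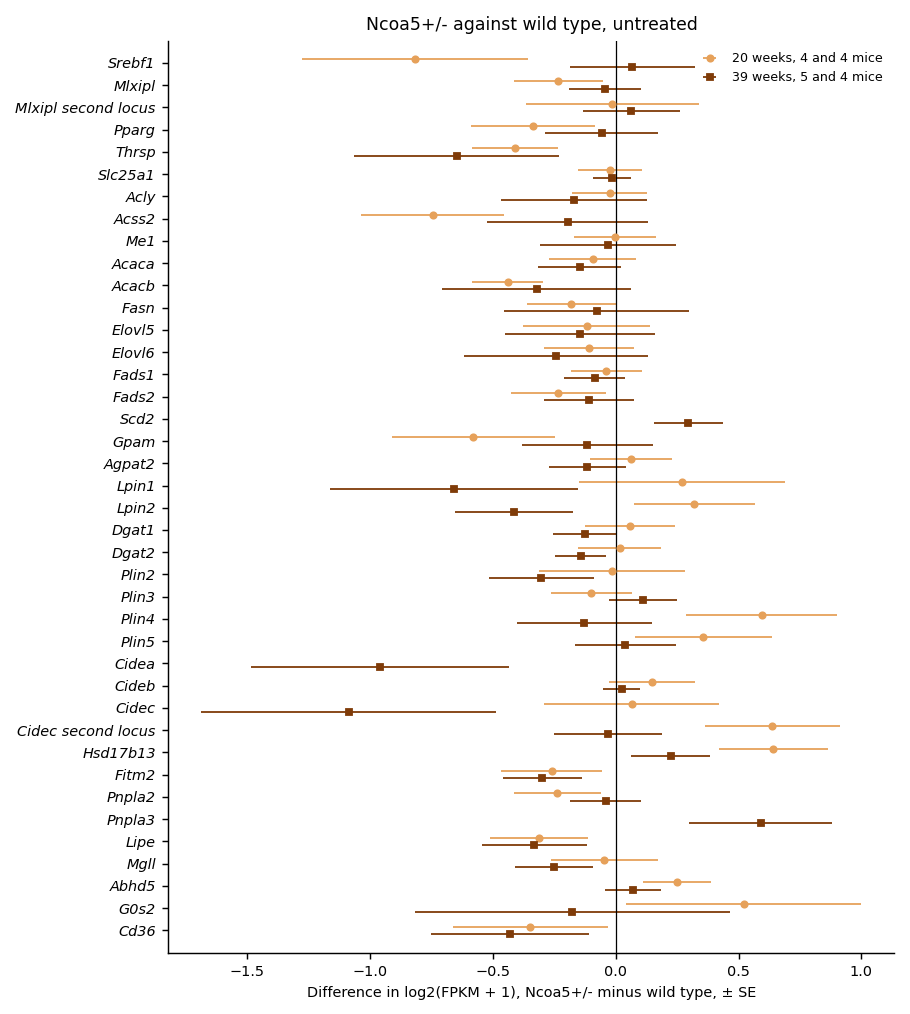
Difference in log2(FPKM + 1) between untreated Ncoa5+/- and wild type mice for each member locus, with bars of 1 standard error, at 20 weeks (circles) and 39 weeks (squares). At 20 weeks Srebf1 and Acss2 lay farthest to the left and Hsd17b13 and the second Cidec locus to the right; at 39 weeks Cidec and Cidea lay farthest to the left with wide bars.

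At 39 weeks without treatment, most members were lower in Ncoa5+/- mice by small amounts: 9 loci were higher and 31 lower with a median of −0.12, against 44.5% of all loci higher and a median of −0.02. Limma passed 0 of 40 member loci, against 0.262% of all 11441 loci (30 loci). At an unadjusted p under 0.05 there was 1 member (2.5%), Scd2, against 5.62% of all. No member had groups without overlap, against 1.81% of all loci. All 7 loci of fatty acid synthesis and all 6 of triglyceride assembly were negative, except 1 of the 7 under quantile normalization. Some were close to 0 beside their errors (Slc25a1 −0.01 ± 0.08, Me1 −0.03 ± 0.28, Fasn −0.08 ± 0.38). Untreated wild type replicate 1 was the highest of all mice at Fasn, Acacb, Acly, Acss2, Slc25a1, Gpam and Agpat2. The signs of these loci without that mouse were not examined.

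Scd2 was at 1.08, 0.687, 1.48 and 0.958 FPKM in wild type mice and 1.48, 1.79, 1.58, 1.34 and 1.32 in Ncoa5+/- mice, where 1 wild type value reached into the other group (0.30 ± 0.14, adjusted p = 0.877). Pnpla3 was at 1.19, 0.317, 0.494 and 0.836 FPKM in wild type mice and 1.31, 1.18, 0.785, 2.34 and 2.43 in Ncoa5+/- mice (0.59 ± 0.29, adjusted p = 0.9). Fitm2, which helps droplets bud from the endoplasmic reticulum, was at 23.6, 22.7, 19 and 28.4 FPKM in wild type mice and 21.1, 16.5, 18, 22.5 and 16.2 in Ncoa5+/- mice (−0.30 ± 0.16). All 3 overlapped. Cidec averaged 7.11 ± 3.68 FPKM (SD, n = 5) in Ncoa5+/- mice and 17.3 ± 11.9 (SD, n = 4) in wild type mice, the widest difference of the members (−1.09 ± 0.60, adjusted p = 0.913). Its second locus was nearly level, with means of 3.29 and 3.42 FPKM (−0.03 ± 0.22, adjusted p = 0.996). Macrophage markers were negative for 8 of 8 genes here too (median −0.36), with sums of 71.6 to 206 FPKM in Ncoa5+/- mice and 116 to 328 in wild type mice; their part was not tested.

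Between the 2 treated groups the members lay on both sides of 0. Of 40 loci, 24 were higher in Ncoa5+/- mice (60%) and 16 lower (median 0.02), against 47.7% of all loci higher and a median of −0.01. Among droplet proteins 8 of 10 loci were higher. Limma passed 0 of the 40 member loci, against 0.157% of all loci. Plin2 alone had an unadjusted p under 0.05 (1 locus, 2.5%, against 4.35% of all), and 0 had groups without overlap, against 3.72%. Plin2 was at 272, 317, 385, 411 and 631 FPKM in treated Ncoa5+/- mice and 308, 276 and 231 in treated wild type mice (0.52 ± 0.23). Averaged over both treatments, the genotype gave 14 members higher and 26 lower (median −0.06), against 44% of all loci higher and a median of −0.01. By limma 0 of 40 passed, against 0.516% of all loci, and 1 stood at an unadjusted p under 0.05, Dgat2 (−0.17 ± 0.08), against 6.2% of all.

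**Figure D3:**
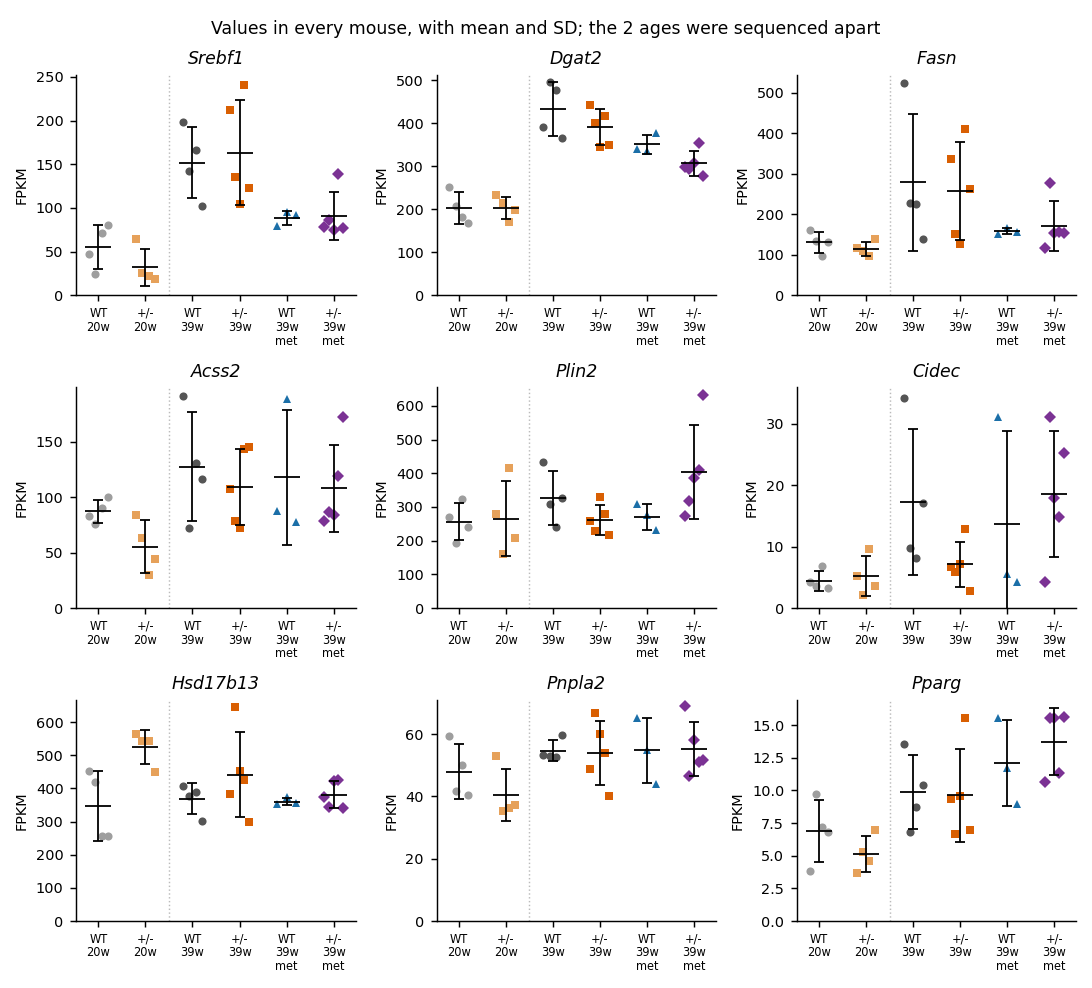
FPKM of 9 members in every mouse, by genotype, age and metformin (met), with mean and SD; an SD bar that would pass below 0 is drawn to 0, and the dotted line parts the cohorts. Srebf1 and Dgat2 were lower in both treated groups at 39 weeks, while Plin2 was high in treated Ncoa5+/- mice, where 1 mouse reached 631 FPKM.

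Metformin was compared with no treatment at 39 weeks in each genotype. Srebf1 and Dgat2 were lower in treated mice of both genotypes, and Plin2, Mgll, Me1 and Pparg were higher in treated Ncoa5+/- mice. By limma 0 of 40 member loci passed in either genotype, as did 0% of all loci in each. In Ncoa5+/- mice 6 members had an unadjusted p under 0.05 (15%, against 8.83% of all loci), and 0 had groups without overlap, against 1.57%. In wild type mice 2 members did (5%, against 9.35%), and 2 had groups without overlap, Srebf1 and Cideb, both lower in treated mice, against 8.33% of all loci. Signs were 21 higher and 19 lower in Ncoa5+/- mice (median 0.02, all loci 0.00) and 13 higher and 27 lower in wild type mice (median −0.08, all loci −0.01). Under quantile normalization these became 25 and 15, and 13 and 27.

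Srebf1 (locus on chromosome 11, 60105013 to 60222581 in GRCm38, shared with the microRNA gene Mir6922) had, on the log2 scale, the most negative difference in both genotypes among members under an unadjusted p of 0.05. Untreated wild type mice had 198, 142, 166.5 and 102 FPKM, and treated ones 78.9, 94.8 and 91.9. Every treated wild type mouse was below every untreated one, at 0.6-fold (−0.74 ± 0.29, adjusted p = 0.45). Untreated Ncoa5+/- mice had 212, 135, 105, 241 and 123 FPKM, and treated ones 78.2, 85.8, 74.3, 139 and 77.4. Of the treated Ncoa5+/- mice 4 were below every untreated one and replicate 4 was not, at 0.573-fold (−0.80 ± 0.24, adjusted p = 0.402). The interaction was small beside its error (−0.07 ± 0.37). Averaged over genotypes the difference was −0.77 ± 0.19 (adjusted p = 0.0892), and without treated Ncoa5+/- replicate 4 it was −0.85 with an adjusted p of 0.0436, which passes. The authors' deposited table for Ncoa5+/- mice also lists Srebf1 as called lower with treatment, at 113 against 192 FPKM (q = 0.00668).

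Dgat2 (chromosome 7, 99153663 to 99182713) showed the smallest unadjusted p of the members in Ncoa5+/- mice. It was at 442, 400, 345, 417 and 350 FPKM untreated and 298.5, 294.5, 308, 354 and 277 treated. Replicate 4 of the treated mice again lay among the untreated ones (−0.35 ± 0.10, 0.786-fold, adjusted p = 0.387). In wild type mice it was at 391, 496.5, 477 and 366.5 untreated and 340, 336 and 376 treated (−0.29 ± 0.12, adjusted p = 0.473), where 1 treated mouse lay above the lowest untreated one. The deposited table of the authors gave 324 against 390 FPKM in Ncoa5+/- mice and did not call it (q = 0.896). Dgat1, the other enzyme of that step, ran from 12.7 to 20.1 FPKM over all 17 mice.

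The enzymes that Srebf1 is known to drive did not pass either. Fasn was at 523, 227, 224 and 139 FPKM in untreated wild type mice and 151, 165 and 157 in treated ones (−0.64 ± 0.43). In Ncoa5+/- mice it was at 337, 150, 127.5, 411 and 262 untreated and 116, 278, 154, 157 and 154.5 treated (−0.51 ± 0.35). Most treated values sat in the lower part of a wide untreated range, and only treated Ncoa5+/- replicate 1, at 116 FPKM, lay under that of its genotype. Every treated wild type mouse was above the lowest untreated one (139). Treated Ncoa5+/- replicate 2, at 278 FPKM, was above the untreated Ncoa5+/- median of 262. Me1, the malic enzyme that supplies NADPH, stood at 156, 89.1, 123, 252 and 125 FPKM untreated and 143, 328.5, 233, 193 and 250 treated in Ncoa5+/- mice (0.65 ± 0.26, adjusted p = 0.518), and at 0.03 ± 0.32 as a difference in wild type mice. Acss2 and Acacb differed by −0.02 ± 0.31 and 0.22 ± 0.36 in Ncoa5+/- mice, Acss2 turning positive under quantile normalization. Mlxipl was from 46.7 to 79.9 FPKM in treated and from 65.3 to 79.9 in untreated Ncoa5+/- mice (−0.10 ± 0.14). Pparg differed by 0.514 ± 0.215 in Ncoa5+/- mice (adjusted p = 0.533) and by 0.272 ± 0.260 in wild type mice (adjusted p = 0.77). Its treated and untreated values overlapped in both genotypes, and those of single mice are given with the correlations below.

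Droplet genes leaned the other way in Ncoa5+/- mice, with 7 of 10 loci higher in treated mice (median 0.28) and 4 of 10 in wild type mice (median −0.07). Plin2 was at 260, 228, 329, 278 and 217 FPKM untreated and 272, 317, 385, 411 and 631 treated in Ncoa5+/- mice, overlapping at the lower treated values (0.57 ± 0.20, 1.49-fold, adjusted p = 0.454). In wild type mice it was at 434, 309, 241 and 326 untreated and 308, 276 and 231 treated (−0.25 ± 0.24). The difference between genotypes in the response was 0.82 ± 0.32 on the log2 scale, with an adjusted p of 0.991 in limma. Cidec was at 6.75, 5.93, 7.26, 12.9 and 2.72 FPKM untreated and 4.2, 31.1, 17.9, 14.8 and 25.2 treated (1.16 ± 0.56, adjusted p = 0.567), and in treated wild type mice at 31.2, 5.5 and 4.32. Its second locus differed by 0.265 ± 0.209 in Ncoa5+/- mice (adjusted p = 0.731) and by 0.115 ± 0.252 in wild type mice (adjusted p = 0.923). Cidea differed by 0.76 ± 0.49 in Ncoa5+/- mice (adjusted p = 0.679) and by −0.75 ± 0.60 in wild type mice (adjusted p = 0.718), with untreated Ncoa5+/- mice at 0.0839 to 3.15 FPKM and treated ones at 0.122 to 4.1. Cideb was at 323, 286, 320 and 302 FPKM in untreated and 281, 260 and 282 in treated wild type mice (−0.16 ± 0.08, adjusted p = 0.576). Hsd17b13 ran from 300 to 646 FPKM over all 17 mice, with differences of −0.17 ± 0.15 and −0.03 ± 0.18. Plin5, the perilipin of mitochondrial contacts, differed by 0.34 ± 0.19 in Ncoa5+/- mice and 0.37 ± 0.23 in wild type mice.

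In the authors' deposited table for metformin in Ncoa5+/- mice, 1.22% of 14159 loci were called. Called higher among the members were Cidec (20.3 against 7.38 FPKM, q = 0.00668), Plin2 (415 against 264, q = 0.00668), Plin5 (23.7 against 16.7, q = 0.0117) and Mgll (74.1 against 52.8, q = 0.0279), and Srebf1 was called lower. The second Cidec locus there, at 4.1 against 3.16 FPKM, was not called. That table gives group values without a spread over mice.

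Among the lipases, Pnpla2 ranged from 40.1 to 66.8 FPKM untreated and 46.6 to 69 treated in Ncoa5+/- mice (0.05 ± 0.14). Mgll, monoacylglycerol lipase, was at 57.1, 39.8, 56.6, 61.7 and 49.6 FPKM untreated and 54.4, 90, 84.4, 58.9 and 68.6 treated in Ncoa5+/- mice (0.41 ± 0.15, adjusted p = 0.472), and differed by −0.02 ± 0.18 in wild type mice, positive under a median shift. G0s2 had the largest difference with treatment averaged over genotypes, 1.26 ± 0.47 (adjusted p = 0.219), with treated wild type mice at 336, 267.5 and 219 FPKM and untreated ones at 295, 17.3, 155 and 164. Pnpla3 differed by −0.50 ± 0.27 in Ncoa5+/- mice and 0.09 ± 0.33 in wild type mice. The members not yet given, Acaca, Scd2, Fitm2, Dgat1, Elovl5, Elovl6, Fads1, Fads2, Agpat2, Lpin1, Lpin2, Plin3, Plin4, Lipe, Abhd5, Acly, Gpam, Thrsp and Slc25a1, differed with metformin by −0.30 (Acly) to 0.35 (Elovl5) in Ncoa5+/- mice and by −0.59 (Lpin1) to 0.18 (Plin4) in wild type mice. Cd36, a fatty acid carrier of the cell surface, averaged 34 ± 13.5 FPKM (SD, n = 5) in treated and 25.5 ± 10.1 (SD, n = 5) in untreated Ncoa5+/- mice.

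Beside these values, macrophage and Kupffer cell markers were higher in treated Ncoa5+/- mice for 7 of 8 genes (sums of 140 to 202 FPKM against 71.6 to 206), and the adipocyte list summed to 8.28 to 14.6 against 10.6 to 16.4. Stellate cells also store lipid in droplets; their markers summed to 101, 93.7, 105, 85.1 and 94.2 FPKM in treated and 90.9, 56.3, 86.9, 81.4 and 77.6 in untreated Ncoa5+/- mice, so that 4 of 5 treated mice lay above every untreated one, while by sign 3 of 7 genes were higher. The part of these lists in the differences of droplet genes was not tested, and the adipocyte genes Adipoq and Plin1 were at most 0.128 and 0.0415 FPKM at 39 weeks.

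**Figure D4:**
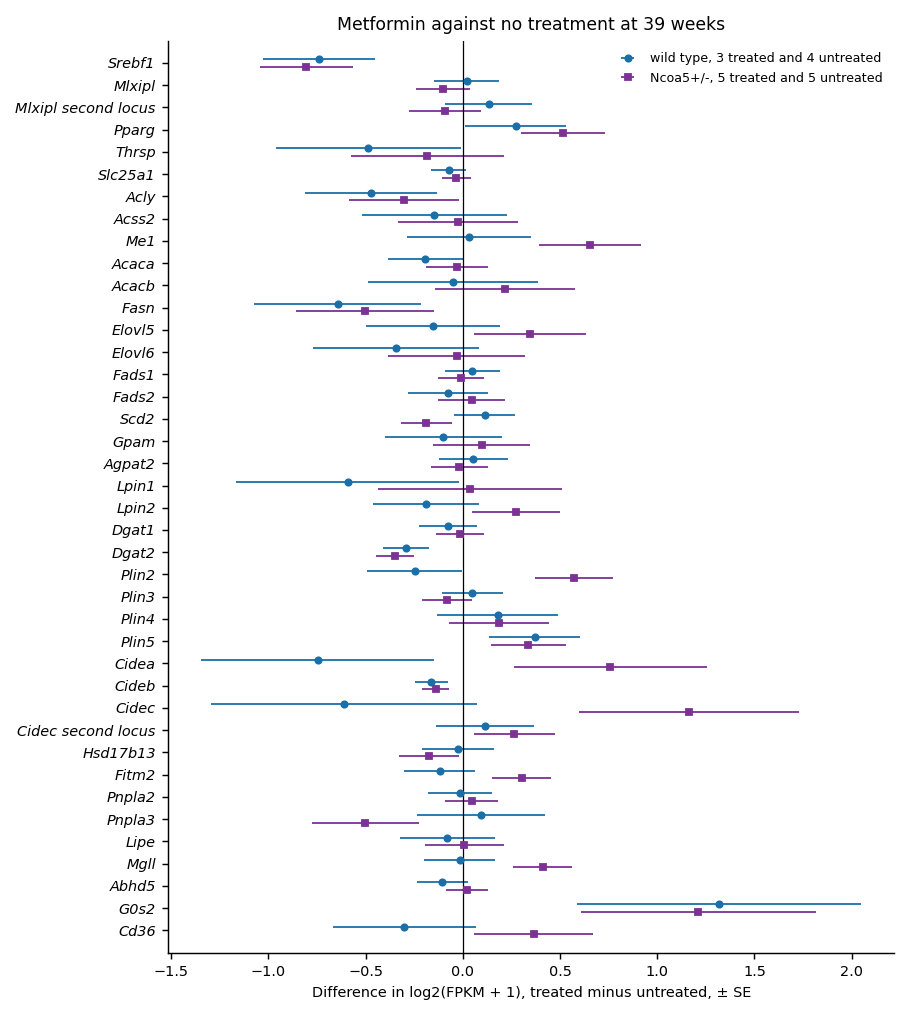
Difference in log2(FPKM + 1) between treated and untreated mice at 39 weeks for each member locus, with bars of 1 standard error, in wild type (circles) and Ncoa5+/- mice (squares). Srebf1 and Dgat2 lay left of 0 in both genotypes, and Plin2, Cidea and Cidec lay on opposite sides; the interaction did not pass limma for any of them.

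Averaged over both genotypes, metformin gave 19 member loci higher and 21 lower (median −0.01; 21 and 19 under quantile normalization, 22 and 18 under a median shift), with 0 of 40 passing limma against 0.035% of all loci (4 loci). At an unadjusted p under 0.05 stood 6 members (15%, against 15.2% of all loci), Dgat2, Srebf1 and Cideb lower and G0s2, Pparg and Plin5 higher. The interaction of genotype and metformin gave 28 positive and 12 negative members (70% positive, median 0.13), against 52.3% of all loci positive and a median of 0.01. All 7 loci of fatty acid synthesis were positive (median 0.16). Of the 40 member loci 0 passed, against 0% of all loci. At an unadjusted p under 0.05 stood 1 member, Plin2, against 2.79% of all.

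Treated Ncoa5+/- mice were also set against untreated wild type mice, the pair of groups that differ in both factors. Dgat2 was lower in every one of the 5 treated Ncoa5+/- mice (277 to 354 FPKM) than in any of the 4 untreated wild type mice (366.5 to 496.5), at 0.712-fold (−0.49 ± 0.10, adjusted p = 0.0692). Without treated Ncoa5+/- replicate 4 it passed, at −0.54 with an adjusted p of 0.0291. Limma passed 0 of 40 member loci, against 0.262% of all loci, and Dgat2 was the 1 member without overlap, against 4.48% of all. At an unadjusted p under 0.05 were 3 members (7.5%, against 12.1%): Dgat2 and Srebf1 (−0.73 ± 0.25) lower and Me1 (0.62 ± 0.28) higher. All 6 loci of triglyceride assembly were negative, with 1 of them positive under quantile normalization and under a median shift, and 8 of 10 droplet loci were positive. The comparisons at 39 weeks share groups, so their values for a gene are not independent.

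Other genes of these pathways, listed apart from the members, gave 0 calls by limma in all 9 comparisons. With metformin in Ncoa5+/- mice, 13 of 19 tested loci of fatty acid and triglyceride synthesis were higher (median 0.05), 2 of 10 genes that control SREBP and lipogenesis were higher (median −0.045), and 8 of 10 further droplet proteins and lipases were higher (median 0.13). Scd1, the main hepatic desaturase, is listed at 0 in every mouse except treated wild type mice (1230 to 3300 FPKM), which marks failed estimates, and it was left out. Of genes that follow fasting or feeding, 8 of 13 loci were higher with metformin in each genotype, and of clock genes 4 of 10 were higher in Ncoa5+/- and 3 of 10 in wild type mice. Lipogenic genes follow both feeding and time of day, and the part of either in the spread between mice was not tested.

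Across the 17 mice at 39 weeks, regulators were compared with textbook target genes in 25 pairs, by Pearson's r and Spearman's rho of log2(FPKM + 1) with two-sided permutation p (100000 resamples) adjusted over the 25. Mice were permuted without regard to group, so these p-values also take in differences between groups. Values centred on the group means are given below as r only. Of the 25 pairs, 7 passed by both measures. Srebf1 went with Acly, ATP citrate lyase (r = 0.795, permutation p = 0.00025, adjusted 0.00312). The rank correlation of that pair was rho = 0.777 (permutation p = 0.00036, adjusted 0.009). Srebf1 also went with Fasn (r = 0.757, permutation p = 0.00048, adjusted 0.004), with rho = 0.625 (p = 0.00852, adjusted 0.0355). Srebf1 did not pass with its other 10 targets, r ranging from −0.046 with Me1 to 0.521 with Thrsp.

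Pparg went with Mgll (r = 0.772, permutation p = 0.00018, adjusted 0.00312; rho = 0.692, p = 0.00241, adjusted 0.0201) and with Cidec (r = 0.751, p = 0.00081, adjusted 0.00506; rho = 0.653, p = 0.00522, adjusted 0.0261). Its pair with Cidea gave r = 0.718 (permutation p = 0.00122, adjusted 0.0061) and rho = 0.702 (p = 0.00228, adjusted 0.0201). Plin2 gave r = 0.617 (permutation p = 0.00663, adjusted 0.0276) and rho = 0.66 (p = 0.00502, adjusted 0.0261), and Fitm2 gave r = 0.613 (p = 0.0103, adjusted 0.0368) and rho = 0.611 (p = 0.0113, adjusted 0.0402). Cd36 (r = 0.539, permutation p = 0.0258, adjusted 0.0807) and Plin4 (r = 0.159) did not pass. Mlxipl passed with 0 of 6 targets, r from −0.147 to 0.204. Pparg values in single mice were 13.6, 6.84, 8.71 and 10.4 FPKM in untreated wild type, 9.31, 6.64, 9.55, 15.58 and 7 in untreated Ncoa5+/-, 15.57, 11.7 and 8.98 in treated wild type and 10.6, 15.57, 15.58, 11.3 and 15.59 in treated Ncoa5+/- mice. The 5 highest lay within 15.57 to 15.59 FPKM, spread over 3 groups.

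With each group centred on its own mean, r was 0.822 for Srebf1 and Acly, 0.699 for Srebf1 and Fasn, 0.731 for Pparg and Mgll and 0.812 for Pparg and Cidec. Without the 2 mice farthest from the median of the regulator, these 4 pairs gave 0.728, 0.63, 0.752 and 0.816. For Pparg with Cidea, Plin2 and Fitm2 the centred values were 0.853, 0.555 and 0.614, and those without 2 mice 0.796, 0.632 and 0.647. Within treated mice alone Srebf1 and Fasn gave r = 0.102, against 0.866 within untreated mice, whereas Srebf1 and Acly gave 0.741 and 0.825. In wild type mice alone Pparg gave r = 0.56 with Mgll and 0.654 with Cidec, and in Ncoa5+/- mice 0.874 and 0.852; the difference was not tested. At 20 weeks, where 8 mice allow a description only, Srebf1 gave r = 0.001 with Fasn and 0.013 with Acly but 0.981 with Gpam, and Pparg gave −0.286 with Mgll and −0.26 with Cidec.

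**Figure D5:**
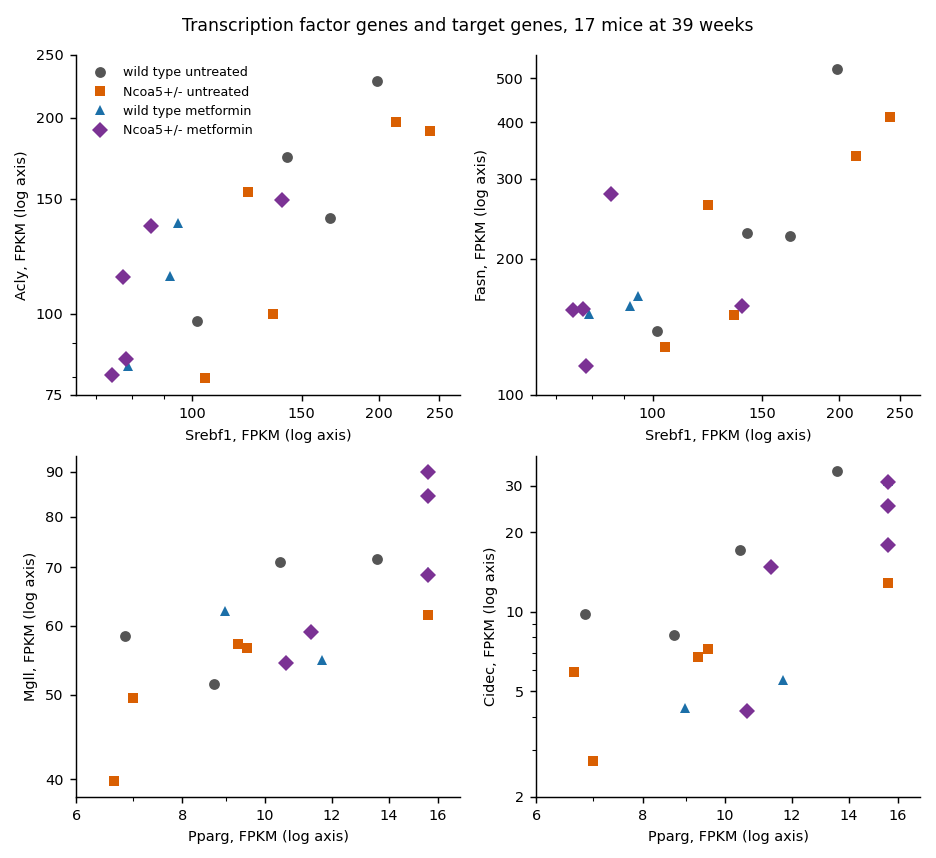
FPKM of Srebf1 against Acly and Fasn, and of Pparg against Mgll and Cidec, in the 17 mice at 39 weeks, both axes log; each point is a mouse, marked by group, and 1 treated wild type mouse (Pparg 15.57) lies under a treated Ncoa5+/- mouse. Pearson's r is 0.795, 0.757, 0.772 and 0.751, and treated mice gather at low Srebf1 except replicate 4 of the treated Ncoa5+/- mice.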

How the data were processed

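Per the labels' protocols, total RNA came from frozen liver, and the libraries of the 2 cohorts were made by different facilities. Per the submitters' processing notes, the authors used Trimmomatic 0.33, TopHat2, Cufflinks and Cuffnorm with GRCm38.p5; other versions are not given in the sources used here. Deposited tables give FPKM by locus and mouse. The authors' deposited comparison tables, read as given, list group FPKM with log2 fold changes. The p-value and q-value beside them are also the authors'.

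From FPKM, log2(FPKM + 1) entered limma 3.58.1 under R 4.3.3 (empirical Bayes with a trend) over loci with a cohort mean of at least 1 FPKM, 10963 at 20 weeks and 11441 at 39 weeks, with Benjamini-Hochberg adjustment over all of them and a threshold of 0.05. Left out as failed estimates were loci at 0 throughout 1 group and above 0 throughout another whose mean was at least 1 FPKM (15 and 14 loci, no member). The titles number each library apart without stating how animals were drawn, so p-values measure the spread between these libraries. Members, lists and tests were chosen with earlier results of these data known. Values in single mice are given for members called, for the 3 with the smallest p in each comparison of 2 groups, and for Srebf1, Mlxipl, Pparg, Fasn, Plin2 and Pnpla2, some as lowest and highest; other members named in the text were picked after their values were seen. Alternatives were other pseudocounts, filters and scalings, limma without a trend or with weights, the compared groups alone, failed estimates kept, and each mouse left out; leaving out the 3 libraries with over 70% in 50 loci was chosen after seeing the data. The fit was tested on simulated data.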

Additional observations from a re-analysis of the deposited data

Results flagged for a closer look

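In groups of 4 or 5 mice, 194 sets of FPKM values were searched for a highest or lowest mouse far from the rest of its group, and 16 stood out. With normally distributed values about 1 in 20 would. The search used FPKM without a log, and its distribution was not examined, so that rate may not apply here. Most of the values that stood out were the highest of their group.

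At 20 weeks, Ncoa5+/- replicate 1 was high for Acaca (13.7 FPKM), Srebf1 (63.9) and Pnpla2 (52.9). Replicate 3 was high for G0s2 (219.3) and low for Mlxipl (45.4), and replicate 4 was high for Dgat1 (13.9). Wild type replicate 4, a library with over 70% of its FPKM in 50 loci, was high for Elovl6 (29.6).

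At 39 weeks, untreated wild type replicate 1 was high for Elovl6 (63.8 FPKM), Gpam (99.6) and Cidea (6.76), and replicate 4 for Pnpla2 (59.6). Treated Ncoa5+/- replicate 2 was high for Fasn (278) and Acaca (47.2), replicate 4 for Srebf1 (139.2) and replicate 5 for Scd2 (2.02), while replicate 1 was low for Agpat2 (83.3). Without replicate 4, Srebf1 for metformin averaged over genotypes passed (−0.85, adjusted p = 0.0436). No member passed a test of genotype by metformin (smallest adjusted p 0.991).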

How the results depend on the processing

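Under the 10 or 11 other settings of each comparison the count of members called was 0 throughout. Leaving out each mouse in turn gave 0 to 1 for treated Ncoa5+/- against untreated wild type mice and 0 to 1 for metformin averaged over both genotypes, in both cases only without treated Ncoa5+/- replicate 4 (Dgat2 and Srebf1), and 0 in the other comparisons. Of 357 differences of members, 14 changed sign under quantile normalization and 9 under a median shift, none of them over 0.061 in size; other settings were run for direction only on the 2 or 3 members with the smallest p in each comparison, which kept theirs. Dgat2 in treated Ncoa5+/- against untreated wild type mice stayed between −0.57 and −0.42, with adjusted p from 0.0291 to 0.199. Srebf1 for metformin averaged over genotypes stayed between −0.86 and −0.69, with adjusted p from 0.0436 to 0.204. The 7 correlations that passed kept r from 0.612 to 0.797 under other pseudocounts and scalings.

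Counts over all loci moved more: for metformin averaged over genotypes from 4 to between 0 and 69, for treated Ncoa5+/- against untreated wild type from 30 to between 15 and 76, for genotype in untreated mice at 39 weeks from 30 to between 11 and 38, for genotype in treated mice from 18 to between 4 and 31, and at 20 weeks from 0 to at most 13. The highest at 20 weeks came with failed estimates kept at 0. Fits of the compared groups alone do not apply at 20 weeks, to the interaction or to averaged comparisons. No paired analysis was possible because each title carries a number of its own, so no number is shared between groups, and the replicate numbers used here follow the order of the samples. Read depth is unknown, so its part in the precision, beside variation among mice, cannot be told.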
